A study of Mus musculus with 4 samples.

Results

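Peaks of Eya1, a transcriptional coactivator that works through DNA-binding partners, were located at 8 genes of the podocyte, the cell that builds the filtration barrier of the kidney glomerulus. The genes were Nphs1, Podxl, Synpo, Tcf21, Kirrel, Cd2ap, Magi2 and Col4a3, chosen by name as podocyte genes. They are 8 of the 21938 protein-coding genes of GENCODE M21 outside the mitochondrion, and all 8 were found in that annotation by symbol.

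Eya1 ChIP-seq was performed on whole kidneys of mouse embryos at E13.5 that carried a knockin allele adding HA and FLAG tags to Eya1, and 80 kidneys were pooled for each assay. The groups were Eya1 immunoprecipitation with anti-FLAG beads (2 replicates), 1 input control and 1 IgG control, all described as material from these tagged embryos, and only the Eya1 replicates have peak lists here. No peaks of the input or IgG control were used here, and whether the replicates came from separate pools of embryos is not given in the sources used here. Each list gives only the position of its peaks, so neither the height of a peak nor the sequencing depth behind it is known, and a gene without a peak may lie below an unknown limit of detection. The study chose this age so that few nephron structures had become epithelial, and it reads Eya1 occupancy as that of nephron progenitors. The libraries are of whole kidneys, no podocyte was isolated, and the cells behind a peak at a podocyte gene cannot be told apart. The text of the study describes Eya1 at REST elements of Nphs1 (intronic) and Podxl (far upstream) in these libraries. It also names Nphs1, Podxl, Synpo and Magi2 from RNA-seq of the same project. Peaks at these genes are therefore not independent examples, and REST-type matches in the peaks at Nphs1 and Podxl are not new findings.

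Podocytes send interlocking foot processes over the glomerular capillaries and close the gaps between them with a slit diaphragm. Nephrin and Neph1 (the products of Nphs1 and Kirrel) span the slit, Cd2ap and Magi2 tie it to the cytoskeleton, podocalyxin (Podxl) keeps the apical surface open by its negative charge, synaptopodin (Synpo) organises actin, collagen IV chains such as Col4a3 form the basement membrane beneath, and Tcf21 is a transcription factor of podocytes and their stromal neighbours. REST, also called NRSF, is a zinc-finger repressor that silences neuronal genes in other tissues. It recognises a long element called RE1, and podocytes share a number of genes and cell-biological features with neurons.

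The peak lists differed in scale. The lists were of similar length and together made 5482 merged intervals outside the mitochondrion, but peaks of replicate 1 had a median width of 1069 bp (168 to 5380 bp) and those of replicate 2 one of 188 bp (117 to 2699 bp). In the 8 loci, taken as each gene with 100 kb on either side, replicate 1 had 10 peaks with a median width of 1024 bp (518 to 2202 bp) and replicate 2 had 11 with a median of 175 bp (149 to 492 bp). Of these, 7 of the 10 and 8 of the 11 overlapped a peak of the other list by at least 1 bp, against 56.8% and 70.7% of the whole lists. Merging overlapping peaks left 13 intervals, of which 7 were in both lists, 3 in replicate 1 only and 3 in replicate 2 only.

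Of the 13 intervals, 6 lay inside a podocyte gene, and of these 2 were in both lists, 2 in replicate 1 only and 2 in replicate 2 only. Of the 7 intervals outside the genes, 6 lay within 1 kb of a transcription start site (TSS) of some other gene. No share of all merged intervals is given here for these counts. The study places most of its Eya1 peaks in proximal promoters, so the counts are not read as a trait of these loci. The podocyte genes with a peak of their own in both lists were Tcf21 and Cd2ap. Kirrel had a peak in replicate 1 only, and Nphs1 and Magi2 had a peak in replicate 2 only. Podxl, Synpo and Col4a3 had no peak in the gene in either list.

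**Figure D1:**
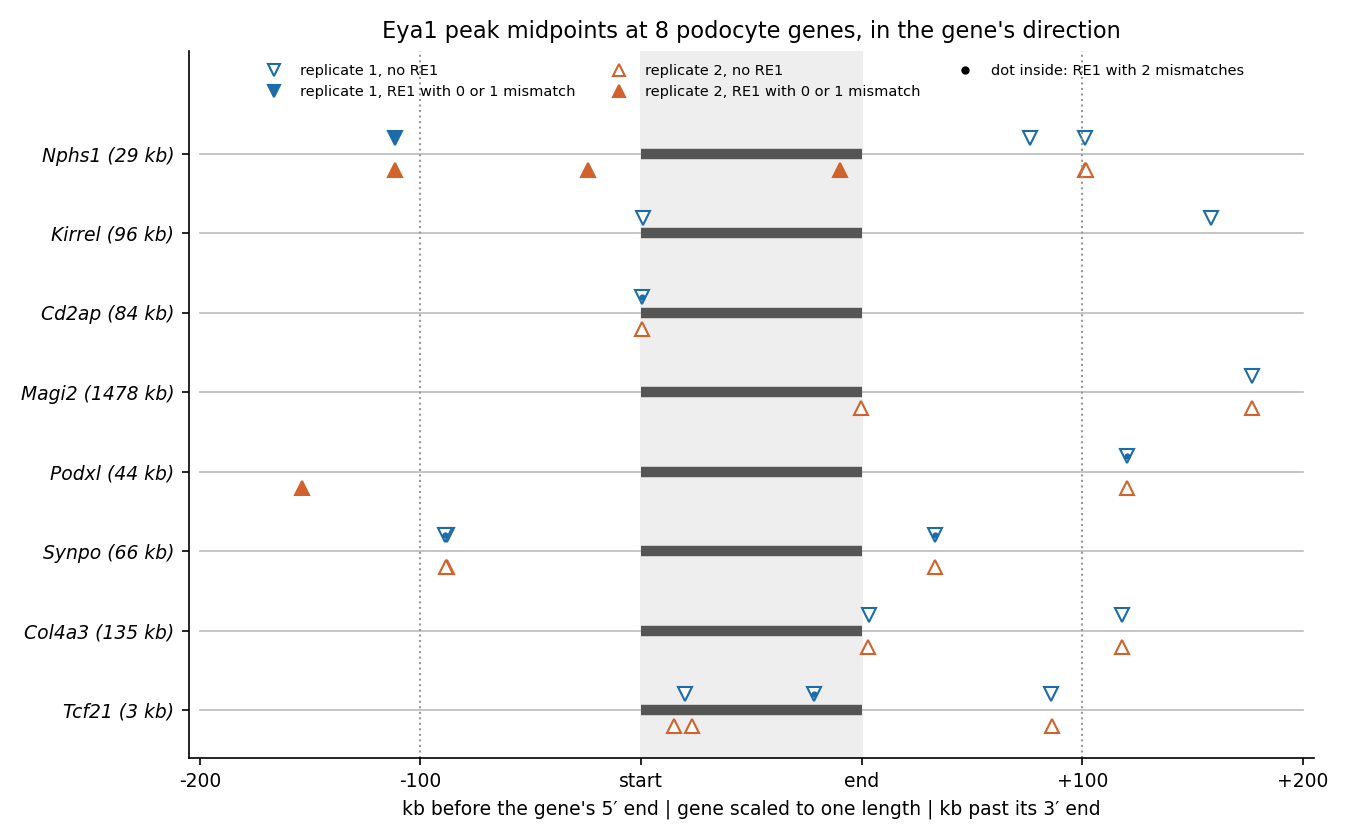
Midpoints of Eya1 peaks at each of the 8 podocyte genes, drawn in the direction of transcription. The x axis gives kb before the 5′ end and past the 3′ end, and each gene (grey bar, its length beside its name) is scaled to the same length, so distances inside a gene and outside it are on different scales. Triangles above the line are replicate 1 peaks and those below it are replicate 2 peaks. A filled triangle marks an RE1 match with 0 or 1 mismatch in the peak and a dot marks a best match with 2 mismatches. Dotted lines stand 100 kb from the gene. Filled triangles are seen only at Nphs1 and Podxl.

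Promoter peaks were read first, with a gene counted when a peak interval lay within 1 kb of any annotated TSS of it. In replicate 1, 3 of the 8 genes had a promoter peak (Tcf21, Kirrel and Cd2ap), against 20.3% of all protein-coding genes. In replicate 2 it was 4 of 8 (Nphs1, Tcf21, Cd2ap and Magi2), against 14.7%. In both lists it was 2 of 8 (Tcf21 and Cd2ap), against 11.5%, and in either list 5 of 8, against 23.5%. Nphs1 and Magi2 were counted only through internal starts of non-coding transcripts near their 3′ ends. When only the 5′ end of the gene record was used, 3 of 8 remained in either list, namely Tcf21, Kirrel and Cd2ap, against 21.5% of all genes. Leaving out replicate 2 gave 3 promoter genes in place of 5.

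A peak anywhere in the gene was found for the same 5 genes, against 23.8% of all protein-coding genes. Without replicate 2 it was found for 3 of them, a count for which no share of all genes is given here. In the gene or within 100 kb of it, 7 of 8 had a peak, all but Podxl, against 60.2% of all genes. Genes differ in length, and the shares of all genes were not adjusted for it. Magi2 is the longest of the 8 at 1478 kb. Among the 230 protein-coding genes of 500 kb or more, 27.8% had a peak in the gene.

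Nphs1 encodes nephrin, the adhesion protein that bridges the slit and whose loss causes congenital nephrotic syndrome. The gene (ENSMUSG00000006649.17) spans chr7:30458315-30487223 on the plus strand of mm10 and is 28.9 kb long. Its only internal peak was a replicate 2 peak of 174 bp at chr7:30484336-30484509, 26.11 kb past the 5′ end. It lay in the intron of 4004 bp that is intron 28 of 29 in the first listed transcript, and 405 bp from the TSS of a retained-intron transcript. The study calls its intronic REST element of Nphs1 proximal, and whether that is the element of this peak was not checked. The nearest replicate 1 peak was 78.81 kb away. Replicate 2 held another peak of 198 bp upstream at chr7:30434348-30434545, with its midpoint at -23.87 kb from the 5′ end, in intergenic sequence 2.46 kb from the nearest coding TSS, which was that of Aplp1, the gene of an amyloid precursor-like protein. There the nearest replicate 1 peak was 87.13 kb away.

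Beyond 100 kb, both lists had a peak about 111 kb upstream of Nphs1, of 589 bp in replicate 1 (chr7:30346631-30347219) and 181 bp in replicate 2 (chr7:30346759-30346939). This interval was the only RE1 peak of the Nphs1 region found in both lists. It was intergenic, and the nearest coding TSS belonged to Lrfn3, a gene of a synaptic adhesion molecule, at 15.83 kb from the replicate 2 peak. The remaining replicate 1 peak within 100 kb lay 76.10 kb past the gene at the start sites of Gm49396, Psenen and U2af1l4 and held no RE1. At the 5′ end of Nphs1 itself there was no peak. The gene stands head to head with Kirrel2, whose product is another slit protein, across a gap of 624 bp, and the nearest peak to that gap was 23.14 kb away.

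The sequences of the Nphs1 peaks and of the corresponding Podxl peak are shown because these 4 are the replicate 2 peaks within 200 kb of the 8 genes in which RE1 was found with at most 1 mismatch. The first 2 lie within 100 kb of Nphs1, and the far upstream peak and the Podxl peak lie beyond it. Each is the whole replicate 2 peak from the mm10 genome, read 5′ to 3′ on the strand of the element, with the 17 bases of RE1 in capitals.
Nphs1 intron, chr7:30484336-30484509, minus strand: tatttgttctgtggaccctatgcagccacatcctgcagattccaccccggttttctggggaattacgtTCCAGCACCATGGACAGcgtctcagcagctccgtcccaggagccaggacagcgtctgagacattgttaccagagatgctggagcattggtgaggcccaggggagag
Nphs1 upstream near Aplp1, chr7:30434348-30434545, plus strand: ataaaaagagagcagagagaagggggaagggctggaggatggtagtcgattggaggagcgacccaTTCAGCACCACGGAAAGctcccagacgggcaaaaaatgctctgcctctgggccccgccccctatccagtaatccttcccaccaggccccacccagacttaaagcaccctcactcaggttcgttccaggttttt
Nphs1 far upstream near Lrfn3, chr7:30346759-30346939, plus strand: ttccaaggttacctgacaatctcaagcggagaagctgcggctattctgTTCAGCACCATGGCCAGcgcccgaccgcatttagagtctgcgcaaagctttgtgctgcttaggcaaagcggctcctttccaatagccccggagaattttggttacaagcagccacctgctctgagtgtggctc
Podxl upstream, chr6:31717631-31717772, minus strand: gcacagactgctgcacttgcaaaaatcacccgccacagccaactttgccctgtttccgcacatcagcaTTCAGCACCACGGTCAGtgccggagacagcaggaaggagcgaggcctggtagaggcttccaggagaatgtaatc

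A match had to lie wholly inside its peak, so a narrow peak limits by itself how far the element can lie from the midpoint. No expected distance was computed. The centre of the element was 10.5 bp from the peak midpoint in the Nphs1 intron, 25.5 bp in the peak near Aplp1, 34.0 bp in the far upstream peak and 5.50 bp at Podxl. In the wider replicate 1 peak of the far upstream interval it lay 110 bp from the midpoint. RE1 was searched on both strands as its 17-base consensus, which has degenerate positions and is given here by name, and up to 2 mismatches were allowed. A match is a property of the sequence and was not a measurement of REST binding.

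The matches themselves are printed side by side to show how far each departs from the consensus. Capitals mark bases that match and lower case marks mismatches.
Nphs1 intron, replicate 2: TcCAGCACCATGGACAG
Nphs1 upstream near Aplp1, replicate 2: TTCAGCACCACGGAaAG
Nphs1 far upstream, both replicates: TTCAGCACCATGGCCAG
Podxl upstream, replicate 2: TTCAGCACCACGGtCAG
Tcf21 intron, replicate 1: gTTAGAACCCAGGAGAc
Cd2ap intron, replicate 1: TTTgGAGtCAGAGAGAG
Magi2 intron, in no peak: TTCAGCACCCAGGACAG
Magi2 intron, in no peak: TTTAGAACCAAGGAGAG

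Among the Nphs1 and Podxl elements, the far upstream one matched throughout, and the mismatch of the others fell at base 2 in the Nphs1 intron, base 15 near Aplp1 and base 14 at Podxl, counted from 1 at the 5′ end. The longer published form of RE1 goes on with CGCC. Of those 4 following bases, 3 matched in the Nphs1 intron, 3 near Aplp1, 4 far upstream and 3 at Podxl. In Tcf21 and Cd2ap only 1 of the 4 matched. The Tcf21 and Cd2ap matches lay 152 bp and 566 bp from the midpoints of replicate 1 peaks of 814 and 1395 bp. The narrower replicate 2 peaks at Nphs1 and Podxl leave less room for such a distance, so the values cannot be compared directly.

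Podxl encodes podocalyxin, the main sialoglycoprotein of the podocyte surface. The gene (ENSMUSG00000025608.9) spans chr6:31519488-31563981 on the minus strand and is 44.5 kb long. It was the only one of the 8 genes with no peak in the gene or within 100 kb in either list. Its RE1 peak, printed above, was found in replicate 2 only, with its midpoint at -153.72 kb from the 5′ end and 142 bp wide. It lay in an intron of the lincRNA Gm43154, and the nearest coding TSS was that of Podxl itself. The nearest replicate 1 peak was 317.70 kb away. On the other side, both lists had a peak at the Mkln1 promoter, about 120 kb past the Podxl gene, of 1189 bp in replicate 1 and 552 bp in replicate 2. There only the replicate 1 peak held an RE1 match, with 2 mismatches and 1 of the 4 following bases.

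Counted over the 8 loci, 4 genes had an RE1 peak in the gene or within 100 kb in either list at up to 2 mismatches (Nphs1, Synpo, Tcf21 and Cd2ap), against 18.8% of all protein-coding genes. The count fell to 1 gene, Nphs1, at up to 1 mismatch, against 7.24%. At up to 2 mismatches it was also 1 without replicate 1 and 3 without replicate 2, the latter being Synpo, Tcf21 and Cd2ap. No share of all genes in a single list is given here for these counts. Having 2 or more merged intervals with RE1 at up to 1 mismatch was seen for 0.789% of all protein-coding genes, and Nphs1 was among them with the intron peak and the peak near Aplp1, both of which came from replicate 2 alone. It was not particular to Nphs1, as 3 of the 43 other podocyte genes read below (6.98%) had it too. Kirrel2 was among these, through the same peaks as Nphs1.

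By peak, 4 of the 10 replicate 1 peaks of the loci held RE1 at up to 2 mismatches and 0 at up to 1, against 17.5% and 5.19% of all replicate 1 peaks. In replicate 2, 2 of the 11 peaks held it, both at up to 1 mismatch, against 17.4% at up to 2 mismatches and 11.7% at up to 1. Of the 13 merged intervals, 6 held RE1, against 20.9% of all merged intervals. The wide replicate 1 peaks offer more sequence to a search with 2 mismatches. Intervals of the same width placed 1 kb to either side of the peaks held a match in 9.47% of cases for replicate 1 and in 1.87% for replicate 2.

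The reverse count asked which RE1 matches of the genome were under a peak. With 0 mismatches, 30.6% of 708 genome matches lay inside a peak of either list, with 1 mismatch 2.67% of 12998, and with 2 mismatches 0.433% of 174053. The 8 loci held 2 matches with 0 mismatches, 22 with 1 and 233 with 2, of which 0, 2 and 4 were inside a peak. When 3 or 4 of the following bases also matched, the genome shares rose to 73.6% of 144 matches with 0 mismatches and 25.4% of 619 with 1 mismatch. In the podocyte loci there were 1 and 3 such matches. The 2 Nphs1 elements were in a peak, and the Magi2 elements of these classes were not.

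**Figure D2:**
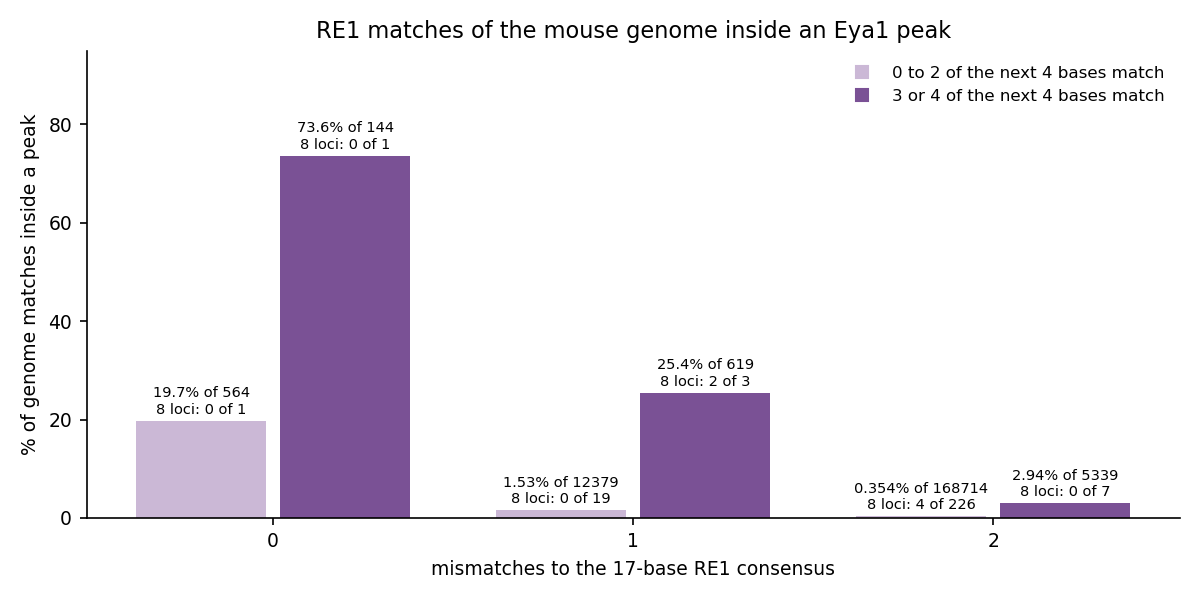
Share of RE1 matches of the mouse genome that lay inside an Eya1 peak of either replicate (y axis, %), by the number of mismatches to the 17-base consensus (x axis) and by how many of the next 4 bases matched the longer form (light and dark bars). The text over each bar gives the number of genome matches and, for the 8 podocyte loci, how many were in a peak. Of the 6 matches of the podocyte loci that were in a peak, the 2 at Nphs1 stand in the dark 1-mismatch class and the other 4 in the light 2-mismatch class.

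Magi2 encodes a scaffold of many PDZ domains that binds nephrin and is also found at synapses. The gene (ENSMUSG00000040003.18) spans chr5:19227036-20704792 on the plus strand. It had a single peak, of 190 bp, in replicate 2 only (chr5:20702168-20702357), over coding and untranslated exon sequence at the 3′ end, where the non-coding RNA gene Gm29254 also starts. The peak was 1475.23 kb past the 5′ end and held no RE1, and the nearest replicate 1 peak was 179.12 kb away. No peak lay at the 5′ end. Both of the zero-mismatch matches of the 8 loci were in Magi2 introns, at chr5:20153935-20153951 with 3 of the 4 following bases and at chr5:20121053-20121069 with 0 of 4, and the nearest peak of either list was 548.22 kb and 581.10 kb away. The 9 matches with 1 mismatch in the locus were in no peak either.

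Cd2ap encodes an adaptor that links nephrin to actin and to endocytosis. The gene (ENSMUSG00000061665.7) spans chr17:42792951-42876665 on the minus strand and is 83.7 kb long. Replicate 1 had a peak of 1395 bp over the 5′ end (chr17:42875506-42876900), and replicate 2 had one of 235 bp inside it (chr17:42876132-42876366), which began 298 bp past the 5′ end and 22 bp from the nearest annotated start. These peaks covered untranslated, coding and intron sequence of the start of the gene. The replicate 2 peak held no RE1, and the match in the replicate 1 peak was in the first part of the gene, 1.03 kb past the 5′ end and outside the replicate 2 interval.

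Kirrel encodes Neph1, which pairs with nephrin across the slit. The gene (ENSMUSG00000041734.15) spans chr3:87078593-87174747 on the minus strand and is 96.2 kb long. Replicate 1 had a peak of 2202 bp over the 5′ end (chr3:87172760-87174961), the widest peak at any of the 8 loci and wider than 94.3% of its list. Replicate 2 had none there, and its nearest peak was 442.72 kb away. The peak held no RE1.

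Tcf21 encodes a basic helix-loop-helix transcription factor needed for glomerulus formation. It (ENSMUSG00000045680.8) is the shortest of the 8 genes at 2.89 kb and spans chr10:22817281-22820174 on the minus strand. Replicate 1 covered most of it with a peak of 2012 bp over the 5′ end (chr10:22818597-22820608) and another of 814 bp at the 3′ part (chr10:22817505-22818318). Replicate 2 had peaks of 151 bp (chr10:22819671-22819821) and 175 bp (chr10:22819422-22819596), both in coding exon sequence and inside the 5′ peak of replicate 1. The replicate 1 peak of 814 bp was the one with the 2-mismatch element, and no replicate 2 peak overlapped it. Both lists also had a peak 85.17 kb and 86.10 kb past the gene at the Tbpl1 promoter.

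**Figure D3:**
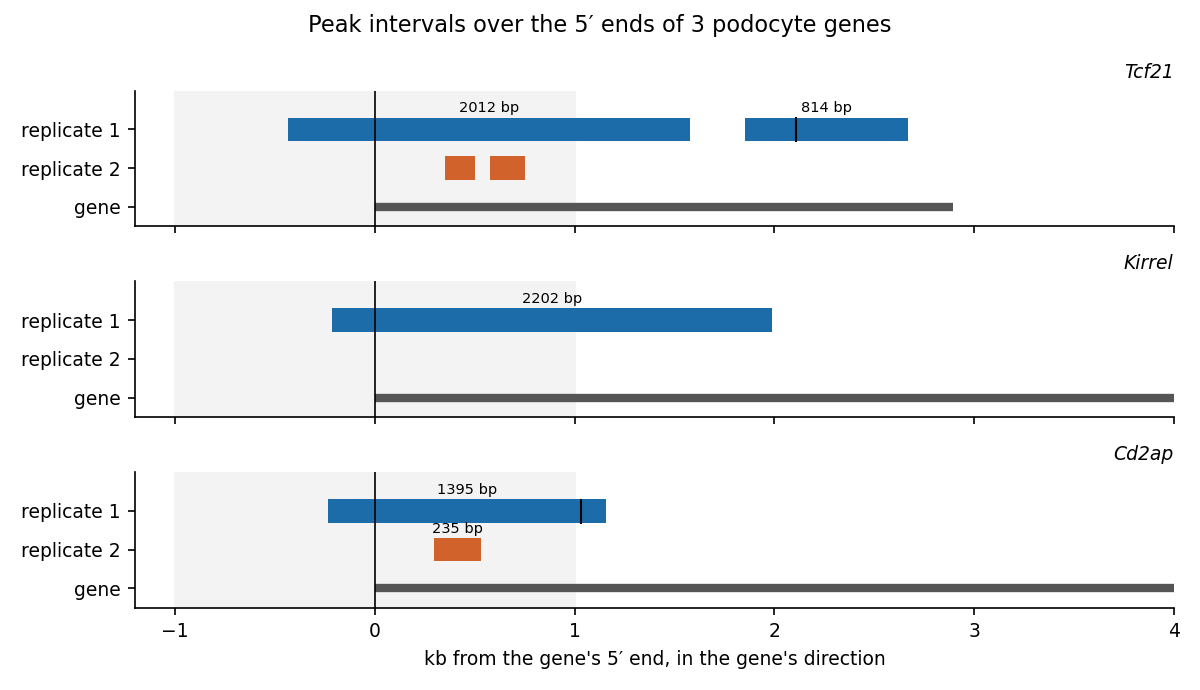
Peak intervals over the 5′ ends of Tcf21, Kirrel and Cd2ap, with distance from the 5′ end in kb on the x axis, in the direction of transcription. Blue bars are replicate 1 peaks, orange bars are replicate 2 peaks, the dark line is the gene, black ticks on the bars are RE1 matches with 2 mismatches, and the shaded area is 1 kb on either side of the 5′ end. The replicate 2 peaks of Tcf21 and Cd2ap lie past the start and inside the replicate 1 peak, and Kirrel has no replicate 2 peak.

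The 200 bases before the 5′ end of each of these 3 genes lay wholly inside its replicate 1 peak and are printed from the mm10 genome, on the strand of the gene, with CpG pairs in capitals to show how the peaks span promoters of unlike base composition.
Tcf21, chr10:22820175-22820374, minus strand: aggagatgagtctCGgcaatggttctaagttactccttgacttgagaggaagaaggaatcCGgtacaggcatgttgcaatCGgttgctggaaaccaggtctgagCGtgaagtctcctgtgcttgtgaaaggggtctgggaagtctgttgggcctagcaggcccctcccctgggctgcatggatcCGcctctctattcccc
Kirrel, chr3:87174748-87174947, minus strand: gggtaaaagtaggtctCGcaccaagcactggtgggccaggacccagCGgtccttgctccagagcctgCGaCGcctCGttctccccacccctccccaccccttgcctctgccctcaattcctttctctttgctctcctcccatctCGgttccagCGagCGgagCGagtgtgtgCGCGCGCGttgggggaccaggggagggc
Cd2ap, chr17:42876666-42876865, minus strand: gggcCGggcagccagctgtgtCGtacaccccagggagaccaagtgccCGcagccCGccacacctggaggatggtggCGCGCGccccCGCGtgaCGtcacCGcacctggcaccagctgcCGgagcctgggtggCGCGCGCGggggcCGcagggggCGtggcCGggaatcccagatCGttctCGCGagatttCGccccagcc

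These windows held 5 CpG pairs at Tcf21, 13 at Kirrel and 23 at Cd2ap, against a median of 7 over the same window of all protein-coding genes. The GC box GGGCGG, searched on both strands, was in none of these 3 windows and, among the 8 genes, at Podxl only, against 37.5% of all protein-coding genes. Neither CCAAT nor TATAAA was found on either strand in the window of any of the 8 genes, against 31.7% and 9.29% of all genes. An absent match says only that these letters are not in the window.

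Promoter composition was compared over the 1 kb centred on each 5′ end, as the observed to expected CpG ratio. The ratio was 0.822 for Podxl, 0.662 for Kirrel, 0.878 for Cd2ap and 0.717 for Magi2, and 0.158 for Nphs1, 0.182 for Synpo, 0.469 for Tcf21 and 0.452 for Col4a3. The median of all protein-coding genes was 0.553, with 0.810 for genes with a peak at the 5′ end and 0.395 for the others. Of all genes with a ratio of 0.6 or more, 42.4% had a 5′ end peak, and of those under 0.6, 3.85% did. Among the podocyte genes it was 2 of the 4 with the higher ratios (Kirrel and Cd2ap) and 1 of the 4 with the lower ratios (Tcf21). Podxl and Magi2 thus had CpG-rich promoters and no peak at the 5′ end, and Tcf21 had a peak over a promoter of lower ratio.

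**Figure D4:**
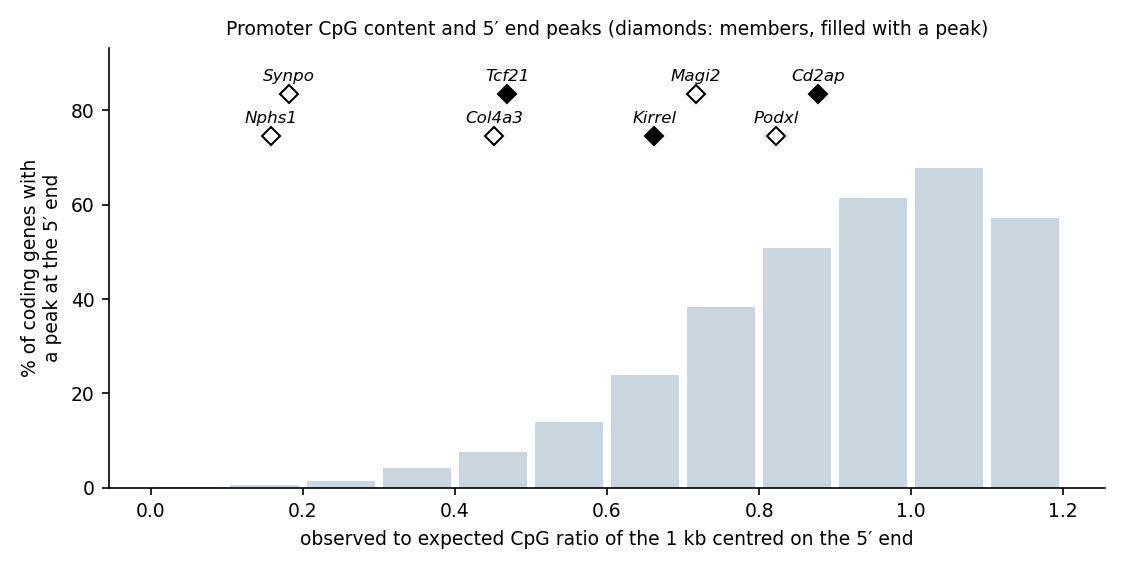
Bars give the share of protein-coding genes with an Eya1 peak within 1 kb of the 5′ end in either list (y axis, %), in steps of the observed to expected CpG ratio of the promoter (x axis). Diamonds mark the ratios of the 8 podocyte genes, filled where the gene has such a peak, and their height carries no value. Filled diamonds are Tcf21 at 0.469, Kirrel at 0.662 and Cd2ap at 0.878.

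The peaks also differed in width within the loci. In replicate 1 the peaks inside podocyte genes were 814, 1395, 2012 and 2202 bp wide, and in replicate 2 they were 151, 174, 175, 190 and 235 bp wide. The widths of the lists did not overlap in these genes. Of the replicate 2 peaks in the loci, only that at the Mff promoter near Col4a3, of 492 bp, was wider than 235 bp.

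**Figure D5:**
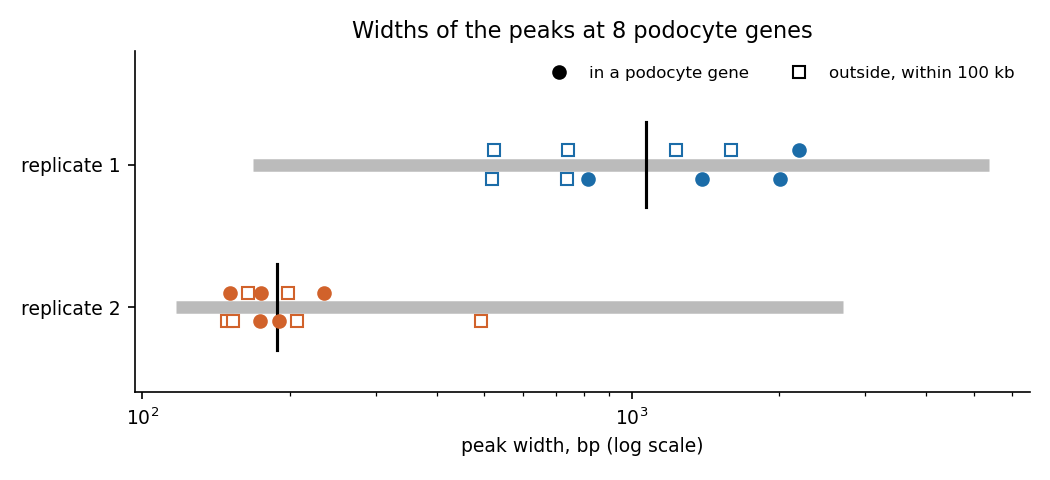
Widths of Eya1 peaks at the 8 podocyte genes (x axis, bp, log scale) in each replicate. Filled circles are peaks in a podocyte gene and open squares are peaks outside it within 100 kb, drawn at staggered heights that carry no value. Grey bars give the range of the whole list and black lines its median. Every replicate 1 point lies to the right of every replicate 2 point.

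Synpo encodes an actin-binding protein of foot processes and of dendritic spines. The gene (ENSMUSG00000043079.17) spans 66.2 kb on chromosome 18 and had no peak of its own, in either list, and none at its 11 annotated starts. All of its neighbouring peaks lay at promoters of other genes. Both lists had a peak at Rbm22, 32.73 kb past the gene (738 bp in replicate 1 and 164 bp in replicate 2). Both also had a pair of peaks at the starts of Rps14 and Ndst1, which overlap, about 88 kb upstream (742 and 518 bp in replicate 1, 149 and 153 bp in replicate 2). Synpo was counted as an RE1 gene only through matches with 2 mismatches in the replicate 1 peaks at Rbm22 and Ndst1, which lay 252 bp and 204 bp from the peak midpoints. The locus had 4 matches with 1 mismatch, 3 of them in the gene, and none was in a peak.

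Col4a3 encodes the collagen IV chain that is the target of Goodpasture antibodies and is mutated in Alport syndrome. The gene (ENSMUSG00000079465.8) is 135 kb long on chromosome 1 and had no peak of its own. It starts 71 bp from Col4a4, its partner chain, in the opposite direction, and the nearest peak to this shared promoter was 137.87 kb away. The only peaks within 100 kb were at the Mff promoter just past the 3′ end, of 1233 bp in replicate 1 and 492 bp in replicate 2, which began 2.73 kb and 2.78 kb beyond the gene. They held no RE1.

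A further 43 genes of the podocyte were read in the same way. Of these, 9 had a promoter peak in replicate 1, which is 20.9% against 20.3% of all protein-coding genes. In replicate 2 it was 10, or 23.3% against 14.7%. In both lists it was 6, or 14.0% against 11.5%, and in either list 13, or 30.2% against 23.5%. Those with a promoter peak in both lists were Nck2 (an adaptor that binds nephrin), Itgb1 (the integrin beta chain of basement membrane adhesion), Foxc1 and Foxc2 (forkhead factors of podocytes), Vegfa (the growth factor podocytes send to the endothelium) and Ptprn (a protein of secretory granules). By group, promoter peaks in either list were found for 2 of 10 slit diaphragm genes, 0 of 5 apical surface and adhesion genes, 3 of 7 actin cytoskeleton genes, 3 of 9 genes of the basement membrane and its receptors, 2 of 6 transcription factors, 1 of 4 genes of signalling and cell cycle and both of the 2 secretory genes. The share of all protein-coding genes beside each of these is the same 23.5%, and the groups are small. Some of these genes, among them Ptprn, Ptpro, Thsd7a, Zbtb7c, Clic5, Rph3a and Tgfbr3, entered this list from the text of the study, which picked them on RNA-seq of the same project, so their counts are not independent of it. For Ptprn and Rph3a the study also describes Eya1 at REST elements in these same libraries. Both of the secretory genes with promoter peaks and 2 of the 7 genes with RE1 at up to 1 mismatch are these genes, so those counts reuse peaks the study had already named.

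RE1 peaks in the gene or within 100 kb were found for 15 of the 43 at up to 2 mismatches and for 7 at up to 1, which is 34.9% and 16.3% against 18.8% and 7.24% of all protein-coding genes. At up to 2 mismatches it was 8 of 43 without replicate 1, a count for which no share of all genes is given here. The 7 were Kirrel2, Kirrel3, Nes, Lamc1, Plce1, Rph3a and Ptprn. Kirrel2 was counted through the same peaks as its neighbour Nphs1 and adds nothing to them. The other 8 had only matches with 2 mismatches, at Nck1, Slc9a3r2, Inf2, Lamb2, Lama5, Itga3, Foxc1 and Cdkn1c. The element of Lamc1, which codes for a laminin chain, lay 972 bp from the midpoint of a replicate 1 peak of 1992 bp.

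The elements in replicate 2 peaks at Kirrel3, Plce1, Ptprn, Rph3a and Nes are printed for comparison with those of Nphs1 and Podxl, with mismatches in lower case. These genes had a match with at most 1 mismatch in a narrow replicate 2 peak, and all their elements in such peaks are printed. Kirrel2 is left out because its elements are those of Nphs1. Inf2 and Lama5 also had elements in replicate 2 peaks, each with 2 mismatches, and these are not printed.
Kirrel3 intron, chr9:34837888-34837904, minus strand, both replicates: aTCAGCACCTCGGACAG
Kirrel3 intron, chr9:34913182-34913198, minus strand, replicate 2: TTCAGCACCACGGACAG
Plce1 intron, chr19:38559006-38559022, plus strand, replicate 2: TTCAGgACCAAGGACAG
Ptprn intron, chr1:75263159-75263175, minus strand, both replicates: TTCAGAACCATGGACAG
Ptprn neighbour Resp18 intron, chr1:75277380-75277396, minus strand, replicate 2: cTCAGCACCACGGACAG
Rph3a intron, chr5:121009614-121009630, plus strand, replicate 2: gTCAGtACCACGGACAG
Rph3a upstream, chr5:121068883-121068899, plus strand, both replicates: TTCAGCACtGCGGACAG
Nes neighbour Bcan intron, chr3:87993661-87993677, plus strand, replicate 2: TTCAGCACCAGGGACAG

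In the replicate 2 peaks of the printed elements, the elements lay between 0 and 23.5 bp from the midpoint, beside 5.50 to 34.0 bp for the 4 at Nphs1 and Podxl. Elements found in replicate 1 peaks alone, at Nck1, Slc9a3r2, Lamb2, Lamc1, Itga3, Foxc1 and Cdkn1c, lay between 154 and 972 bp from the midpoint, and those of Lamc1 and Foxc1 were inside the gene. A match had to lie wholly inside its peak, so a narrow peak limits this distance by itself. The distances therefore cannot be compared between the lists. Of the printed elements in both lists, that of Ptprn lay 458 bp from the midpoint of its replicate 1 peak. Those of Kirrel3 and Rph3a lay 25.0 bp and 24.0 bp from theirs. Kirrel3, a paralog of Kirrel and Kirrel2, had peaks of 339 bp in replicate 1 and 150 bp in replicate 2 at 352.00 kb past its 5′ end, and a replicate 2 peak of 117 bp at 427.30 kb. Ptprn had its element 1.33 kb past the 5′ end, in peaks of 1649 bp and 171 bp. For Nphs1 the intron peak was in replicate 2 only, as it was for Plce1, a phospholipase gene mutated in nephrotic syndrome, whose peak was 137 bp wide.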

How the data were processed

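Per the labels and the methods of the study, Eya1 ChIP-seq libraries of E13.5 kidneys (2 immunoprecipitation replicates, 1 input, 1 IgG) were aligned to mm10. The methods name Bowtie and the processing notes of the submitters name HISAT2. The authors then ran MACS with several P cutoffs and with input or IgG as the control, and kept the peaks common to both controls for their analyses. That final peak set of the study was not used here, so presence or absence of a peak can differ from it. The deposited lists give chromosome, start and end, with no score, count or signal, and which cutoff or control made each list is not given in the sources used here; its part in the unlike widths was not tested. Starts were read as 0-based and printed 1-based. Of replicate 2, 11 mitochondrial peaks were left out of RE1 counts.

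A peak was assigned to a gene by the gap between intervals (Python 3.11.15, numpy 2.4.6, pysam 0.24.0, matplotlib 3.10.9). Gene models were from GENCODE M21, and RE1 was searched in the GRCm38 genome of RefSeq, which holds every peak, over whole peaks. With 1 group and no scores, no test was run, and counts stand beside the share of all protein-coding genes. Motif search and interval steps were tested on simulated data, which checked recovery of planted elements and known gaps but not the rate of false matches. The members and lists were chosen with earlier results of these data known. Named genes were the 8 members and, of 43 others, those with a promoter peak in both lists or an RE1 peak within 100 kb, and neighbours were named only to place a peak. Some of the 43 genes are counted and not reported here by name.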

Additional observations from a re-analysis of the deposited data

How the results depend on the processing

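Counts of genes and intervals were small and depended on the list and on the RE1 rule. Leaving out each replicate in turn gave 3 to 4 promoter genes in place of 5, 3 to 4 genes with a peak in the gene in place of 5, 6 with a peak within 100 kb in place of 7, 1 to 3 RE1 genes in place of 4, and 2 to 4 RE1 intervals in place of 6. Among the other 43 genes it gave 9 to 10 promoter genes in place of 13 and 8 to 10 RE1 genes in place of 15. The promoter count without replicate 2 was 3, and the RE1 gene count without replicate 1 was 1. With the 5′ end of the gene record alone, or with the starts of protein-coding transcripts alone (added after the data were seen), 3 of the 8 genes had a promoter peak. At up to 1 mismatch the counts were 1 RE1 gene, 2 RE1 intervals and 7 of the other genes, with no mismatch 0, 0 and 3, and within a 200-bp window on the peak midpoint 1, 2 and 8. Distances of 50 or 200 kb in place of 100 kb, and of 500 bp or 2 kb in place of 1 kb to a TSS, left each of the counts they apply to within 1.5 times of its value. In all, 23 of 39 alternative values stayed within 1.5 times and 16 moved further. No paired analysis was possible because the only group with peak lists is the Eya1 immunoprecipitation and nothing is compared between groups. Depth is unknown, so an absent peak may mean too few reads. The cause of the differences between the lists was not tested.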
